A study of Mus musculus with 6 samples.

Results

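The 10 genes described here (Phlda3, Gdf15, Trp53inp1, Aen, Perp, Ddit4l, Rrm2b, Cyfip2, Abhd4 and Ei24) are known targets of p53 whose products act in stress and survival signalling rather than in cell cycle arrest. They were taken by gene symbol as p53 targets from the 56691 genes counted. No value entered the rule, but the list was put together with earlier results of these libraries known, so their counts are a description. Their transcripts were measured by total RNA-seq in whole kidneys of C57BL/6 male mice that were 9 weeks old at the first injection. The 3 mice of the cisplatin group received 4 weekly intraperitoneal injections of 8 mg/kg cisplatin, a platinum drug that crosslinks DNA and injures the renal tubule. The 3 mice of the control group received the saline vehicle on the same schedule. Kidneys were taken at week 7, and each mouse gave 1 library. No allele or transgene is named for either group, so p53 itself was not manipulated and a change in these genes cannot be assigned to p53 from this design.

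p53, encoded by Trp53, is a transcription factor that DNA damage stabilizes, mainly by releasing it from the ubiquitin ligase Mdm2. It binds response elements made of adjacent copies of a short palindromic motif, and its targets range from arrest genes such as Cdkn1a and death genes such as Bax to the genes here, which restrain growth signalling, supply deoxynucleotides, promote autophagy or alter the cell surface. In the kidney, cisplatin is taken up mostly by the proximal tubule, where the p53 response is a known part of the injury.

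Short stretches of the promoters are shown because they place the p53 motif beside the expression values of the genes that carry it. RefSeq windows of GRCm38.p6, which run from 250 bases before to 50 bases after an annotated start, were found for 7 of the 10 genes (Phlda3, Gdf15, Aen, Ddit4l, Cyfip2, Abhd4 and Ei24). A perfect p53 decamer, the single copy of the motif, was present in 4 of these 7, against 9.55% of 27025 genes with a window. In the list of other p53 targets described below, 7 of the 33 genes with a window had one. The matches are in capitals below, each with the flanking bases, 5′ to 3′ on the strand of the gene.
Ddit4l: caactcccagGGGCTTGCCTgggcccctgc
Aen: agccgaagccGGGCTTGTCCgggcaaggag
Ei24: cgtgcggcccGGGCATGCCCagtgtgggcg
Abhd4: cgacccggcaGGGCTTGTTTactatggctg
These stretches lie at chr3:137623572-137623601 on the plus strand, at chr7:78895927-78895956 on the plus strand, at chr9:36797325-36797354 on the minus strand and at chr14:54259274-54259303 on the plus strand. Counting the annotated start as +1, the decamer began at -90 in Ddit4l, at -10 in Ei24 and at +2 in Abhd4. That of Aen lay in 2 overlapping windows, at +11 from one start and at -121 from the other. Abhd4 also had 2 windows, which did not overlap. Its decamer lay in the downstream one (chr14:54259033-54259332), and the upstream one (chr14:54253879-54254178) held none. A full element of adjacent decamers, with a conserved core and at most 2 other mismatches, was found in 0 of the 7 genes. It was present in 2 of the 33 other p53 targets and in 0.392% of all genes. The 8-base core TGATGNAA, which is part of the composite site of the stress factor Atf4, was searched on both strands. This core was also found in 0 of the 7, in 2 of the 33 other p53 targets and in 4.51% of all genes. Of the 4 genes with a decamer, Ddit4l, Aen and Abhd4 were higher in cisplatin kidneys and Ei24 was not called, while Phlda3 and Gdf15, which rose the most, had none in the window. A match of letters is no measure of binding, and elements of p53 often lie outside windows of this length.

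All 10 genes passed the filter on low counts. By edgeR's quasi-likelihood test, with p-values adjusted by Benjamini-Hochberg over all 15662 genes tested, Phlda3, Gdf15, Trp53inp1, Aen, Ddit4l and Abhd4 were higher in cisplatin kidneys, Rrm2b was lower, and Perp, Cyfip2 and Ei24 were not called. Over all tested genes 24.5% were called higher and 22.8% lower, beside 6 of 10 higher and 1 of 10 lower here. The median log2 fold change of the 10 genes was 0.80, and their range ran from -0.60 to 3.40, beside a median of 0.05 over all tested genes. In 6 of the 10, all cisplatin libraries lay above all control libraries, as did 30.2% of all tested genes. The summed level of the 10 genes was 508, 575 and 479 CPM (counts scaled to library size with TMM factors) in the cisplatin libraries and 350, 364 and 364 CPM in the control libraries. When the TMM factors were left out and library totals used, 9 of the 10 were called higher and 0 lower, against 54.2% and 8.79% of all tested genes, and the median of all genes moved to 0.48.

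**Figure D1:**
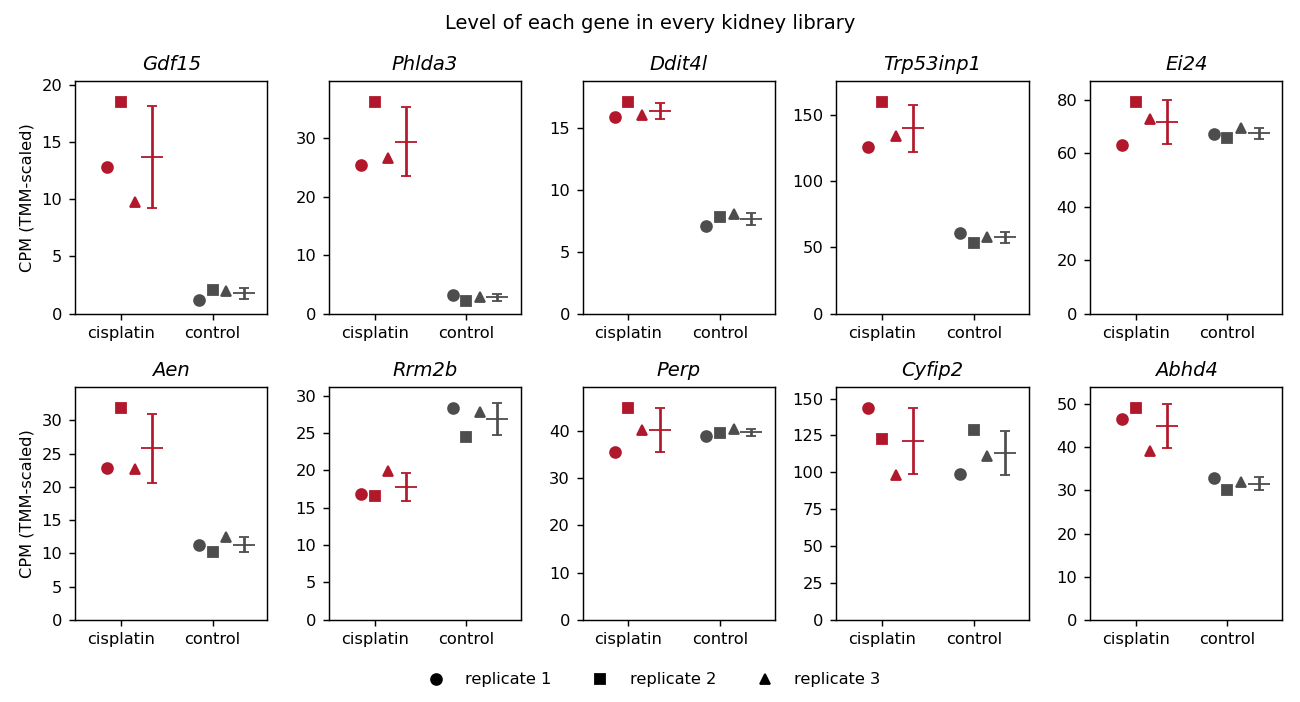
Level of each gene (CPM, TMM-scaled, linear axes from 0) in each of the 3 cisplatin and 3 control libraries; symbols mark the replicate, and the bar beside them gives the mean and SD. The groups are apart for 7 genes (Rrm2b with cisplatin below control) and overlap for Ei24, Perp and Cyfip2.

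The 6 libraries held 21891855 to 26627554 pairs counted on the transcript strand, which were 96.7% to 97.2% of the counts on both strands together. Pairs that overlapped no annotated exon on the counted strand made up 6.09% to 9.32% in cisplatin and 4.63% to 4.86% in control libraries. Pairs in introns or on the opposite strand of a gene fall in this share. The TMM factors were 1.05 to 1.26 in cisplatin and 0.844 to 0.894 in control libraries. The labelled tissue carried its markers, but their balance differed between the groups. The counts below stand beside 24.5% of all tested genes called higher and 22.8% called lower. Of 14 proximal tubule markers 13 were lower, with summed levels of 5301 to 5466 CPM in cisplatin and 32578 to 33195 CPM in control libraries. Most of the control sum came from Kap alone, at 280 ± 124 CPM in cisplatin and 21184 ± 440 CPM in control kidneys. The median log2 fold change of the 14 markers was -0.98. All 10 markers of injured tubule were higher (2609 to 2880 CPM in cisplatin and 412 to 450 CPM in control libraries), among them Havcr1, which encodes the injury antigen KIM-1, at 105 ± 6.98 CPM in cisplatin and 1.02 ± 0.329 CPM in control kidneys (SD, n = 3 each; adjusted p = 2.342e-09 by edgeR). Markers were higher for 8 of 12 genes of collecting duct and intercalated cells (413 to 468 CPM in cisplatin and 287 to 318 CPM in control libraries) and 9 of 10 macrophage genes (280 to 331 CPM in cisplatin and 90.2 to 112 CPM in control libraries). So were 8 of 10 fibroblast genes (500.4 to 828 CPM in cisplatin and 271 to 329 CPM in control libraries) and 4 of 5 tested T cell genes (5.80 to 7.77 CPM in cisplatin and 2.98 to 3.70 CPM in control libraries). In the urothelium and squamous list 4 of 7 tested genes were higher (14.5 to 20.3 CPM in cisplatin and 8.17 to 13.9 CPM in control libraries), with Krt13 at 0 in every library. Of 10 endothelial markers 4 were lower (310 to 391 CPM in cisplatin and 423 to 436 CPM in control libraries), and of 3 tested B and plasma cell markers 1 was higher and 1 lower. Some of these counts moved with single libraries: T cell markers higher numbered 2 without control replicate 1, urothelium and squamous markers higher 2 without cisplatin replicate 2, control replicate 2 or control replicate 3, and endothelial markers lower 7 without cisplatin replicate 1. The B and plasma cell call in the higher direction was lost in every omission except that of cisplatin replicate 2, and the lower one without cisplatin replicate 1, cisplatin replicate 2 or control replicate 1. The part of these shifts in the changes described here was not tested, and in whole kidney a change in the number of cells of a type and a change in RNA per cell cannot be told apart.

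Gdf15 encodes a secreted stress cytokine of the TGF-β superfamily, a known target of p53 and also of the integrated stress response, that signals to the brainstem receptor Gfral and suppresses feeding. The gene lies at chr8:71082038-71091537 on the minus strand (GRCm39, as are all gene positions here). It was at 12.8, 18.5 and 9.72 CPM in the cisplatin libraries and at 1.18, 2.09 and 2.02 CPM in the control libraries. Every cisplatin library stood above every control library, and among the cisplatin mice the highest was 1.90 times the lowest, the widest spread of the 10 genes. The means were 13.7 ± 4.44 CPM in cisplatin and 1.76 ± 0.509 CPM in control kidneys (SD, n = 3 each), and the log2 fold change was 2.97 (standard error, SE, 0.272, adjusted p = 1.064e-05 by edgeR). The depth behind it was 372, 552 and 223 counts in cisplatin and 28, 43 and 42 counts in control libraries. Gfral had 0 counts in all 6 libraries, which at a limit of 3 counts per library says only that it was not detectable at this depth.

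Phlda3 and Ddit4l encode brakes on growth and survival signalling. Phlda3 is a small pleckstrin homology protein that competes with Akt kinases for membrane lipid and so limits their activation. Its gene, at chr1:135693809-135697686 on the plus strand, showed 25.5, 36.1 and 26.5 CPM in the cisplatin libraries and 3.23, 2.19 and 2.88 CPM in the control libraries. This was the largest change of the 10 (29.4 ± 5.88 CPM in cisplatin and 2.77 ± 0.531 CPM in control kidneys, SD, n = 3 each), and its log2 fold change of 3.40 (SE 0.181, edgeR adjusted p = 2.471e-07) placed it at rank 100 of the 15662 tested genes. The same-family gene Phlda2, an imprinted gene that limits placental growth, moved the other way, at 2.30, 2.95 and 2.61 CPM in cisplatin and 6.80, 5.11 and 5.76 CPM in control libraries (log2 fold change -1.17, SE 0.164, adjusted p = 0.0001985). Phlda1, the other relative, was at 1.89 ± 0.127 CPM in cisplatin and 1.42 ± 0.193 CPM in control kidneys and was not called (adjusted p = 0.1036). Per kb of exon, Phlda3 was at 4.81, 5.34 and 4.41 times the level of Phlda2 in the cisplatin libraries and at 0.207, 0.186 and 0.217 times in the control libraries. Phlda2 was thus the more abundant of the pair in all 3 control kidneys and Phlda3 in all 3 cisplatin kidneys.

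Ddit4l, also called REDD2, inhibits mTORC1 signalling like its relative Ddit4 (REDD1). The gene lies at chr3:137327282-137334229 on the plus strand. It was at 15.9, 17.1 and 16.04 CPM in the cisplatin libraries and at 7.10, 7.83 and 8.02 CPM in the control libraries. Both groups were tight, and the coefficient of variation in cisplatin kidneys, 3.98%, was the smallest of the 10 genes. The log2 fold change was 1.10 (SE 0.102, adjusted p = 1.192e-05 by edgeR). Ddit4, which responds to low oxygen and glucocorticoids as well as to p53, was also higher, at 17.8, 24.5 and 28.3 CPM in cisplatin and 8.40, 7.83 and 7.21 CPM in control libraries (log2 fold change 1.59, SE 0.162, adjusted p = 2.25e-05). The ratio of Ddit4l to Ddit4 per kb of exon overlapped between the groups (0.622 ± 0.142 in cisplatin and 0.852 ± 0.116 in control kidneys, SD, n = 3 each). Of 8 genes of Akt and mTORC1 signalling 2 were higher, 1 lower and 5 not called, while 24.5% of all tested genes were higher and 22.8% lower. Akt1 was higher (48.6 ± 5.05 CPM in cisplatin and 33.6 ± 0.744 CPM in control kidneys, adjusted p = 0.0008927), and Mtor, the kinase that Ddit4l restrains, was lower (69.8 ± 8.81 CPM in cisplatin and 176 ± 39.0 CPM in control kidneys, SD, n = 3 each, log2 fold change -1.33, adjusted p = 4.949e-05).

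**Figure D2:**
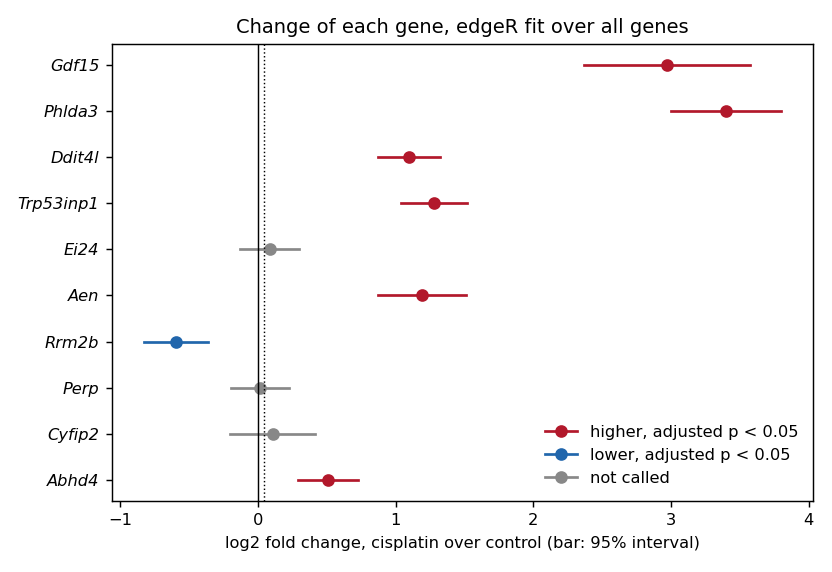
Log2 fold change of each gene, cisplatin over control, with its 95% interval from the edgeR fit over all 15662 tested genes; the dotted line is the median of all tested genes (0.05). Phlda3 (3.40) and Gdf15 (2.97) stand far to the right, 4 genes lie between 0.51 and 1.28, 3 intervals include 0 and Rrm2b (-0.60) is the only gene on the left.

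Trp53inp1 and Ei24 encode proteins of the stress response that act in autophagy. Trp53inp1 also promotes the phosphorylation of p53 in the nucleus, and so belongs to a positive loop. Located at chr4:11156412-11175230 on the plus strand, it was at 126, 159 and 134 CPM in the cisplatin libraries and at 61.1, 53.4 and 58.0 CPM in the control libraries. No value of one group came near the other, and with means of 140 ± 17.6 CPM in cisplatin and 57.5 ± 3.87 CPM in control kidneys (SD, n = 3 each) Trp53inp1 had the largest absolute gain of the 10 genes. Its log2 fold change was 1.28 (SE 0.108, adjusted p = 6.106e-06 by edgeR). Trp53inp2, a relative with a role in autophagosome formation, was at 63.0, 46.5 and 45.2 CPM in cisplatin and 58.7, 68.2 and 62.8 CPM in control libraries, and was not called (log2 fold change -0.29, adjusted p = 0.08079). This lay close to the threshold: Trp53inp2 was called lower with DESeq2 (adjusted p = 0.0344), with its size factors (0.0499), with the replicate block (0.0494), with no low-count filter and without cisplatin replicate 1, the only cisplatin library within the control range (log2 fold change -0.46, adjusted p = 0.00148), and was at 0.15 with library totals. Per kb of exon, Trp53inp1 was at 2.39, 4.10 and 3.53 times the level of Trp53inp2 in cisplatin kidneys and at 1.24, 0.935 and 1.10 times in control kidneys.

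Ei24 (also PIG8), a membrane protein of the endoplasmic reticulum that autophagy requires, did not separate the groups. It lies at chr9:36689806-36710519 on the minus strand and was at 62.9, 79.2 and 72.8 CPM in the cisplatin libraries and at 67.4, 65.6 and 69.5 CPM in the control libraries. The control libraries lay inside the range of the cisplatin libraries. The log2 fold change was 0.09, with a 95% interval of -0.13 to 0.30 (adjusted p = 0.4911 by edgeR).

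Aen and Rrm2b act on nucleic acids and their precursors, and they moved in opposite directions. Aen encodes an exonuclease that p53 induces and that takes part in DNA fragmentation during apoptosis. At chr7:78545602-78560957 on the plus strand, it was at 22.9, 31.8 and 22.7 CPM in the cisplatin libraries and at 11.2, 10.3 and 12.4 CPM in the control libraries. The groups did not overlap, and the log2 fold change was 1.19 (SE 0.144, adjusted p = 7.291e-05 by edgeR). Isg20, an interferon-induced exonuclease of the same family, was at 1.43 ± 0.139 CPM in cisplatin and 0.913 ± 0.137 CPM in control kidneys (SD, n = 3 each; log2 fold change 0.66, adjusted p = 0.03534). The call on Isg20 was lost without any 1 library other than cisplatin replicate 3 (log2 fold change 0.53 to 0.73 and adjusted p = 0.0671 to 0.143 in these 5 fits).

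Rrm2b encodes p53R2, the small subunit of ribonucleotide reductase that supplies deoxynucleotides for DNA repair and for mitochondrial DNA in cells that do not divide. It is the textbook p53-inducible subunit, and it was the 1 gene of the 10 that fell. The gene, at chr15:37924196-37961562 on the minus strand, was at 16.9, 16.6 and 19.96 CPM in the cisplatin libraries and at 28.3, 24.4 and 27.9 CPM in the control libraries. The highest cisplatin library stayed below the lowest control library, and the log2 fold change was -0.60 (SE 0.105, adjusted p = 0.0009082 by edgeR). With library totals the value was -0.18 and was not called (adjusted p = 0.166), but relative to the median of all genes it was -0.65 with library totals and -0.64 with TMM factors. Rrm2, the small subunit made in S phase, rose in the same kidneys, at 4.82, 4.15 and 3.36 CPM in cisplatin and 2.35, 2.09 and 2.26 CPM in control libraries (log2 fold change 0.88, SE 0.177, adjusted p = 0.002059). Rrm1, the large subunit that pairs with either of them, was at 14.96 ± 0.322 CPM in cisplatin and 11.1 ± 0.454 CPM in control kidneys (log2 fold change 0.43, adjusted p = 0.003443).

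The balance of the ribonucleotide reductase transcripts was compared within each library. Per kb of exon, Rrm2b was at 1.18, 1.35 and 2.01 times the level of Rrm2 in cisplatin kidneys and at 4.07, 3.94 and 4.17 times in control kidneys. Rrm2b remained the more abundant small subunit in all 6 libraries. Against Rrm1, its ratio was 1.42 ± 0.121 in cisplatin and 2.90 ± 0.282 in control kidneys (SD, n = 3 each). These ratios do not depend on the scaling between libraries. In 8 pairs compared in this way, 5 did not overlap between the groups (Rrm2b over Rrm2, Rrm2b over Rrm1, Phlda3 over Phlda2, Trp53inp1 over Trp53inp2 and Perp over Tmem47). For each of these the exact two-sided permutation test gave p = 0.1, the smallest that 3 against 3 mice allow, and 0.16 after adjustment over the 8 pairs, so no pair could pass the threshold. Single genes also often did not overlap. Of the 15662 tested, 4723 had all cisplatin libraries above all control libraries and 4325 had them below. No such share was computed for ratios, and the pairs Rrm2b over Rrm2 and Rrm2b over Rrm1 share a gene, so the count of 5 is a description.

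**Figure D3:**
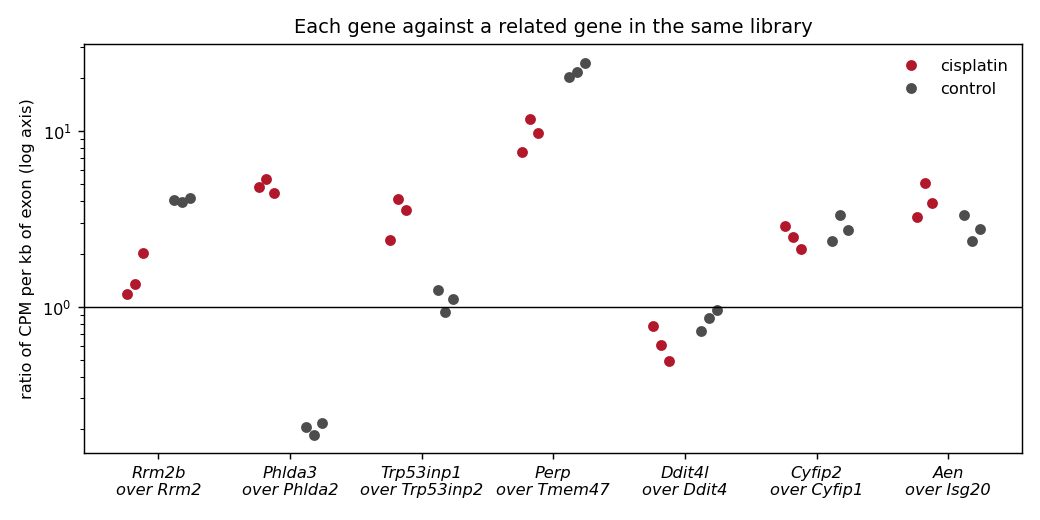
Ratio of each gene to a related gene within the same library (CPM per kb of exon, log axis), 1 point per library, cisplatin left of control within each pair. Phlda3 over Phlda2 crosses 1 between the groups, Rrm2b over Rrm2 is lower in cisplatin kidneys (1.52 ± 0.436) than in control kidneys (4.06 ± 0.113), and the pairs of Ddit4l, Cyfip2 and Aen overlap.

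Perp and Cyfip2 encode proteins of the cell surface and of the actin cortex, and neither was called. Perp is a tetraspan membrane protein that is needed for desmosomes in stratified epithelia and that p53 and the related factor p63 induce. Its gene lies at chr10:18720715-18732821 on the plus strand. It was at 35.5, 44.8 and 40.1 CPM in the cisplatin libraries and at 39.1, 39.6 and 40.5 CPM in the control libraries, so the cisplatin libraries fell on both sides of the control range. The log2 fold change was 0.02, with a 95% interval of -0.20 to 0.23 (adjusted p = 0.9083 by edgeR). Its relative Tmem47, a junctional protein, was higher at 9.99 ± 1.06 CPM in cisplatin and 4.30 ± 0.326 CPM in control kidneys (SD, n = 3 each; log2 fold change 1.21, adjusted p = 3.28e-05). Of 5 desmosome genes 3 were higher, against 24.5% of all tested genes. These were the cadherin genes Dsg2 and Dsc2 and Dsp, which encodes the plaque protein desmoplakin. The plaque genes Jup (log2 fold change 0.21, adjusted p = 0.3153) and Pkp2 (0.02, adjusted p = 0.8803) were not called. Dsg2 was at 14.8 ± 3.22 CPM in cisplatin and 3.85 ± 0.216 CPM in control kidneys (log2 fold change 1.95, adjusted p = 8.07e-06) and Dsp at 54.8 ± 15.9 CPM in cisplatin and 23.5 ± 2.30 CPM in control kidneys (log2 fold change 1.22, adjusted p = 0.0003566).

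Cyfip2 is a subunit of the WAVE regulatory complex, which starts branched actin networks below Rac, and is also a known p53-inducible gene. It lies at chr11:46084550-46203686 on the minus strand and was at 143, 122 and 98.4 CPM in the cisplatin libraries and at 99.0, 129 and 111 CPM in the control libraries. The groups overlapped over nearly their whole range. The log2 fold change was 0.11 with a 95% interval of -0.20 to 0.42 (adjusted p = 0.554 by edgeR), the widest interval of the 3 genes not called. Cyfip1, which takes the same place in the complex, was at 59.0 ± 2.42 CPM in cisplatin and 49.0 ± 1.91 CPM in control kidneys (SD, n = 3 each; log2 fold change 0.27, adjusted p = 0.01879). That call was lost without cisplatin replicate 2 or any 1 control library (log2 fold change 0.23 to 0.29, adjusted p = 0.053 to 0.105). Of 10 genes of the WAVE complex, Cyfip1 included, 4 were higher and 2 lower, against 24.5% and 22.8% of all tested genes. Nckap1, the partner that binds Cyfip proteins directly, was lower at 122 ± 3.61 CPM in cisplatin and 152 ± 2.52 CPM in control kidneys (log2 fold change -0.32, adjusted p = 0.008029), but with library totals its value was 0.11.

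Abhd4 encodes a serine hydrolase that cuts N-acyl phospholipids on one of the routes to N-acylethanolamines such as anandamide, and it takes part in the death of cells that lose attachment. The gene lies at chr14:54491645-54508094 on the plus strand. It was at 46.5, 49.0 and 39.2 CPM in the cisplatin libraries and at 32.9, 30.0 and 31.9 CPM in the control libraries. This was the smallest of the 6 rises, yet the groups did not overlap, and the log2 fold change was 0.51 (SE 0.0992, adjusted p = 0.001743 by edgeR). Faah, which breaks N-acylethanolamines down, was lower at 17.2 ± 2.14 CPM in cisplatin and 33.8 ± 2.76 CPM in control kidneys (SD, n = 3 each; log2 fold change -0.97, adjusted p = 5.103e-05). Of 3 genes of N-acylethanolamine metabolism, Faah included, 0 were higher and 2 lower, against 24.5% and 22.8% of all tested genes. Gde1 was the other one lower (log2 fold change -0.27, adjusted p = 0.04766 by edgeR), and Napepld was not called (-0.17, adjusted p = 0.3111). Abhd5, a relative of Abhd4 and a coactivator of triglyceride lipase, was lower at 28.9 ± 1.99 CPM in cisplatin and 40.9 ± 0.557 CPM in control kidneys (log2 fold change -0.50, adjusted p = 0.0006455), a value that became -0.08 with library totals. Of all 36 tested genes in the list of relatives and partners of the 10, 14 were higher (38.9%) and 7 lower (19.4%). Over all tested genes the shares were 24.5% and 22.8%. The median log2 fold change of the 36 was 0.17. Without control replicate 3, or with DESeq2, 9 genes of this list were higher.

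Per kb of exon, summed over all annotated transcripts of a gene, the order of the 10 genes differed between the groups. In cisplatin kidneys Perp (20.03 CPM per kb) and Trp53inp1 (19.0) led, followed by Phlda3 (11.4), Ei24 (10.3), Cyfip2 (9.96), Abhd4 (7.76), Gdf15 (6.04), Ddit4l (5.21), Aen (2.27) and Rrm2b (1.81). The range over the 3 libraries did not overlap between the neighbours Trp53inp1 and Phlda3 or between Ddit4l and Aen, while the ranges of the other neighbours overlapped. In control kidneys the order was Perp (19.8 CPM per kb), Ei24 (9.74), Cyfip2 (9.25), Trp53inp1 (7.82), Abhd4 (5.46), Rrm2b (2.73), Ddit4l (2.43), Phlda3 (1.07), Aen (0.996) and Gdf15 (0.778). Here the ranges did not overlap between Perp and Ei24, Trp53inp1 and Abhd4, Abhd4 and Rrm2b, or Ddit4l and Phlda3. Perp thus held the first place in both groups, while Phlda3 held place 3 in cisplatin against place 8 in control kidneys, and Gdf15 place 7 against place 10. Long exon sums, such as that of Aen (11.4 kb) or Cyfip2 (12.2 kb), lower the value per kb where the kidney uses shorter transcripts, which was not tested.

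The cisplatin mice were not alike in these genes. Replicate 2 gave the highest cisplatin value in 8 of the 10 genes, the exceptions being Rrm2b (highest in replicate 3) and Cyfip2 (highest in replicate 1), and in all 6 of the genes that rose. Relative to the mean of the 3 cisplatin libraries, replicate 2 stood at 135% for Gdf15, 123% for Phlda3, 123% for Aen and 114% for Trp53inp1, but only at 105% for Ddit4l. Over all genes called higher, replicate 2 was the highest cisplatin library in 30.2%, replicate 1 in 47.9% and replicate 3 in 21.9%. The same library led Cdkn1a, which encodes p21, at 66.1, 88.0 and 57.7 CPM in the cisplatin libraries against 3.11, 2.09 and 2.79 CPM in the control libraries, and 17 of the 26 other p53 targets that rose. Replicate 2 also led 5 of the 9 integrated stress response genes that rose. Of the 10 injured tubule markers it led 4 and the other cisplatin libraries 3 each, while their summed level, most of it from Spp1, was 2729, 2609 and 2880 CPM in cisplatin replicates 1, 2 and 3. The summed levels in that order were 828, 528 and 500.4 CPM for fibroblast, 331, 281 and 280 CPM for macrophage and 17.2, 20.3 and 14.5 CPM for urothelium and squamous markers. The share of pairs on no exon of the counted strand was 9.32%, 6.63% and 6.09% in the same order. The part of any of these in the order of the mice was not tested. Without replicate 2 the 6 genes were still called, with log2 fold changes of 3.22 for Phlda3, 2.69 for Gdf15, 1.18 for Trp53inp1, 1.01 for Aen, 1.07 for Ddit4l and 0.44 for Abhd4, and Rrm2b was still lower at -0.55.

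**Figure D4:**
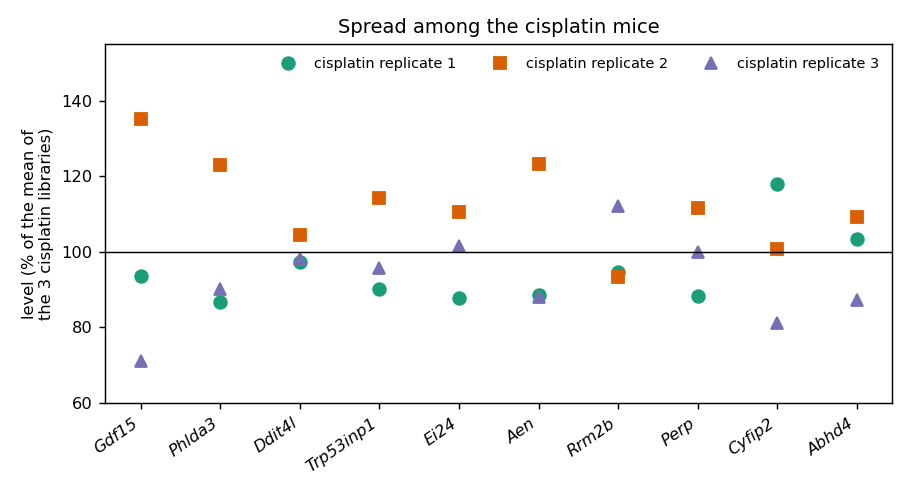
Level of each gene in the 3 cisplatin libraries as a percentage of their mean (100% line; the axis does not start at 0), with a symbol per mouse. Replicate 2 is on top for 8 genes, from 105% (Ddit4l) to 135% (Gdf15), and lies at 93.4% for Rrm2b and 101% for Cyfip2.

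Of 14 tested genes in the list of p53 and its regulators, 5 were higher (35.7%) and 1 lower (7.14%), against 24.5% and 22.8% of all tested genes, and their median log2 fold change was 0.11. Trp53 itself was at 13.6, 13.4 and 11.7 CPM in the cisplatin libraries and at 10.4, 10.2 and 10.8 CPM in the control libraries (log2 fold change 0.31, SE 0.103, adjusted p = 0.03204 by edgeR). Leaving out any 1 library other than cisplatin replicate 3 ended this call (log2 fold change 0.27 to 0.32, adjusted p = 0.0629 to 0.115), and DESeq2 gave 0.26 (adjusted p = 0.185). Mdm2, both a target and the main inhibitor of p53, was higher at 34.9, 41.0 and 33.8 CPM in cisplatin and 20.6, 16.7 and 20.4 CPM in control libraries (log2 fold change 0.93, SE 0.113, adjusted p = 7.594e-05). Its relative Mdm4 was at 40.1 ± 2.33 CPM in cisplatin and 31.5 ± 0.854 CPM in control kidneys (log2 fold change 0.35, adjusted p = 0.005407). The remaining calls, on the phosphatase gene Ppm1d (0.33, adjusted p = 0.03041), on Trp63 (0.73, adjusted p = 0.03519) and on the kinase gene Chek2 (-0.53, adjusted p = 0.02142), did not survive the omission of some libraries. The number called higher fell to 2 without cisplatin replicate 2, control replicate 2 or control replicate 3, and to 3 without cisplatin replicate 1 or control replicate 1, while Chek2 lost its call without cisplatin replicate 1, cisplatin replicate 2 or control replicate 2.

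Among 38 other tested p53 targets, 26 were higher (68.4%) and 1 lower (2.63%), against 24.5% and 22.8% of all tested genes. Their median log2 fold change was 0.82, beside 0.80 for the 10 genes. This list holds arrest, death, repair and metabolic targets and was put together with results of these libraries known. The strongest calls by adjusted p were Cdkn1a, Eda2r and Ephx1. Cdkn1a had a log2 fold change of 4.72 (SE 0.194, adjusted p = 5.664e-08 by edgeR). Eda2r, a member of the TNF receptor family, was at 33.8 ± 9.65 CPM in cisplatin and 0.807 ± 0.154 CPM in control kidneys (log2 fold change 5.37). Ephx1, microsomal epoxide hydrolase, was at 159 ± 34.8 CPM in cisplatin and 20.2 ± 0.389 CPM in control kidneys (log2 fold change 2.97). Psrc1, which encodes a microtubule protein (6.10 ± 1.89 CPM in cisplatin and 0.248 ± 0.127 CPM in control kidneys, log2 fold change 4.61), and Sfn, the 14-3-3σ gene (8.06 ± 0.525 CPM in cisplatin and 2.31 ± 0.235 CPM in control kidneys, log2 fold change 1.80), came next. Dram1, a lysosomal protein of p53-dependent autophagy, was the only one lower, at 4.54, 3.48 and 3.97 CPM in cisplatin and 6.63, 5.45 and 6.24 CPM in control libraries (log2 fold change -0.61, SE 0.148, adjusted p = 0.006076). With library totals Dram1 was at -0.18 and was not called (adjusted p = 0.384), and without control replicate 1 the list had 2 genes called lower. Rrm2b and Dram1 were thus the only 2 called lower among the 48 tested p53 targets of this list and the 10 genes. In both, all cisplatin libraries lay below all control libraries, as in 4325 of the 15662 tested genes. Mdm2 and Ddit4, which are placed in other lists, are not among the 48.

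**Figure D5:**
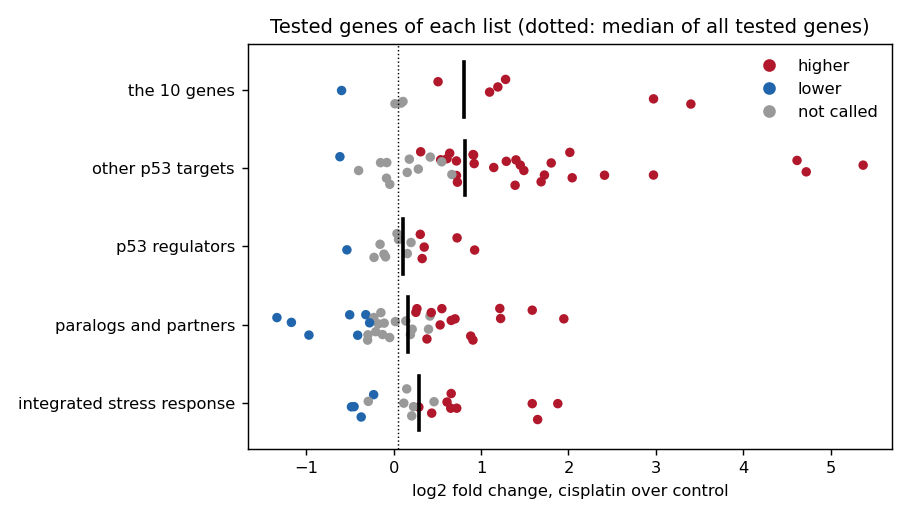
Log2 fold change, cisplatin over control, of every tested gene in 5 lists (1 point per gene, spread vertically for sight only); black bars are list medians, and the dotted line is the median of all tested genes (0.05). The medians of the 10 genes (0.80) and of the other p53 targets (0.82) lie to the right of those of the regulators (0.11), the relatives and partners (0.17) and the integrated stress response (0.29).

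Because Gdf15 and Ddit4 also answer to the integrated stress response, in which kinases that sense stress raise the translation of the factor Atf4, the genes of that pathway were examined. The list holds Ddit4 itself, and Sesn2, which is also among the other p53 targets. Both were called higher, so not all rises in this list are separate from those above. Of 19 tested, 9 were higher (47.4%) and 4 lower (21.1%), against 24.5% and 22.8% of all tested genes. The share lower was thus near that of all genes. The median log2 fold change of the 19 was 0.29. The rises included Phgdh, the first enzyme of serine synthesis (16.6 ± 2.99 CPM in cisplatin and 5.32 ± 0.323 CPM in control kidneys, log2 fold change 1.65, adjusted p = 8.07e-06 by edgeR), and Atf3, a stress-induced transcription factor (2.95 ± 0.0876 CPM in cisplatin and 0.803 ± 0.191 CPM in control kidneys, log2 fold change 1.88, adjusted p = 4.236e-05). Cebpb and Nupr1, which encode stress-induced transcriptional regulators, were higher by 0.72 (adjusted p = 0.001842) and 0.65 (adjusted p = 0.00272) on the log2 scale. Atf4 (44.1 ± 2.40 CPM in cisplatin and 40.6 ± 2.41 CPM in control kidneys, adjusted p = 0.2844) and Ddit3, which encodes CHOP (3.40 ± 0.285 CPM in cisplatin and 2.95 ± 0.623 CPM in control kidneys, adjusted p = 0.3708), were not called. Ddit3 had 2 gene records in the counts, and only the one with the longer exon sum was used. The 4 genes called lower were Eif2ak1, the haem-regulated kinase of the pathway (log2 fold change -0.48), Vldlr, a lipoprotein receptor (-0.37), Psat1, the second enzyme of serine synthesis (-0.45), and Ppp1r15b, a phosphatase subunit that ends the response (-0.23), and with library totals 0 genes of the list were called lower. Without cisplatin replicate 2 or control replicate 3 the number lower was 2. Psat1 lost its call without cisplatin replicate 2 (adjusted p = 0.0508) or control replicate 3 (adjusted p = 0.0524). Ppp1r15b lost its call without cisplatin replicate 2 or any 1 control library (adjusted p = 0.0593 to 0.152), and with upper-quartile factors (0.185), no low-count filter (0.0809) or at least 10 counts per library (0.0654). Counts of mRNA do not show the translation of Atf4, through which the pathway mainly acts.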

How the data were processed

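Total RNA of 3 cisplatin and 3 control kidneys was sequenced as paired reads from stranded libraries, 1 per mouse. The authors trimmed the reads with Cutadapt, aligned them with STAR to the mouse genome (mm39, GRCm39) and deposited the raw counts per gene that STAR writes, without normalization. Which annotation release and STAR settings they used is not given in the sources read here. Columns of these counts for the transcript strand were used. Gene names came from GENCODE vM39, in which 56017 of 56691 identifiers were found, and promoter windows from RefSeq (GRCm38.p6). Positions of the 2 builds were not mixed.
Counts were tested with edgeR 4.0.16 (R 4.3.3), with filterByExpr (minimum count 10, minimum total 15), TMM factors, a quasi-likelihood F test and Benjamini-Hochberg adjustment over 15662 genes at a threshold of 0.05. CPM are counts divided by the library total times its TMM factor, and standard errors were computed from the F statistic. The p-values measure the spread between 3 mice per group. The fit was tested on simulated data. Ratios of related genes were compared by exact permutation tests (scipy 1.17.1).
Alternatives were DESeq2 1.42.0 as the test, other scalings (library totals, upper-quartile factors and the size factors of DESeq2), a filter of at least 10 counts per library or none, unstranded counts, a replicate block and the omission of each library in turn.
The text names the 10 genes, up to 5 genes higher and 5 lower per list with the smallest adjusted p, Trp53, Mdm2, Cdkn1a and the closest relatives of the 10. For the lists of cell type markers the text gives counts and summed levels, and for proximal tubule the median. It names only Kap, Havcr1, Spp1, Krt13 and Ehd3 of these markers. Krt13, Dsc2, Jup, Pkp2, Gde1, Napepld, Atf4, Ddit3, Sesn2 and Gfral were named after their values were seen. The genes and lists were chosen with earlier results of these data known. Small RNA and Ago2 data were not analysed here.
On the opposite strand the 10 genes together had 10 to 14 counts per cisplatin and 2 to 6 per control library. Exons of Gdf15, Aen, Rrm2b, Cyfip2 and Ei24 overlap annotated antisense exons (the coding genes Fndc9 for Cyfip2 and Fez1 for Ei24, and long noncoding RNAs). On the same strand only a microRNA precursor overlaps an exon, that of Ddit4l (73 bases).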

Additional observations from a re-analysis of the deposited data

How the results depend on the processing

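The 6 genes that rose kept their direction and their call in all 14 alternatives. Their log2 fold changes ranged over 3.22 to 3.83 for Phlda3, 2.69 to 3.41 for Gdf15, 1.18 to 1.71 for Trp53inp1, 1.01 to 1.62 for Aen, 1.04 to 1.53 for Ddit4l and 0.44 to 0.94 for Abhd4. Rrm2b was lower in 13 of 14, from -0.71 to -0.55 when single libraries were left out. Library totals moved every gene upward, since they lift the median of all genes from 0.05 to 0.48, and this setting gave 8496 genes higher and 1376 lower in all. Under it 0 of the 10 genes were lower, and Perp (0.44), Cyfip2 (0.55) and Ei24 (0.51) were called higher, though relative to the median of all genes they stood at -0.04, 0.08 and 0.03. It also gave 11 regulators higher and 0 lower, 0 other p53 targets lower, 3 relatives and partners lower and 0 integrated stress response genes lower, and it reversed Trp53inp2 (0.15), Nckap1 (0.11), Vldlr (0.051), Ppp1r15b (0.20) and the endothelial marker Ehd3 (0.18). Regulators higher numbered 3 with no low-count filter and 2 with DESeq2, which called 9 relatives and partners higher; the cause was not tested. Perp, which was not called, was below 0 with DESeq2 size factors (-0.014), with DESeq2 (-0.028) and without cisplatin replicate 2, cisplatin replicate 3 or control replicate 1 (-0.071, -0.014 and -0.0017), and ranged from -0.071 to 0.099 with single libraries left out. Cyfip2, also not called, ranged from -0.028, without cisplatin replicate 1, to 0.21.
Leaving out each library in turn gave 3000 to 4046 genes higher and 2902 to 4180 lower in all, 6 of the 10 genes higher and 1 lower each time, 2 to 4 regulators higher and 0 to 1 lower, 25 to 26 other p53 targets higher and 1 to 2 lower, 9 to 15 relatives and partners higher and 5 to 10 lower, and 6 to 9 integrated stress response genes higher and 2 to 5 lower.
Replicate numbers in the titles are not stated to mark a shared cage or day, so they were not taken as pairs in the main fit. Deviations from the group means correlated across genes by 0.13, 0.14 and 0.10 (0.0997) between libraries of the same number. Between libraries of different numbers the correlations ran from -0.13 to -0.03, so each library correlated best with its own number. Whether the numbers mark something shared was not tested. With the replicate block 6 of the 10 genes were higher and 1 lower. In all, 4085 genes were higher and 3796 lower with it, against 3841 and 3578 without it.
The 95% intervals of the genes not called reached 0.23 for Perp, 0.30 for Ei24 and 0.42 for Cyfip2 on the log2 scale. Intervals cover the spread between these mice only.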
